A study of Marchantia polymorpha and Arabidopsis thaliana with 40 samples.

Results

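The chromosome 4 knob of Arabidopsis thaliana was described through the accessible regions whose midpoints lay in the 750 kb that start at 1600000 on chromosome 4, a window on the short arm. It held 689 of the 110628 regions counted in this species, and it was set beside 500 kb on its upstream side (524 regions) and 500 kb on its downstream side (494 regions). Accessibility was measured by ATAC-seq, which uses a transposase (Tn5) to tag DNA that is open to it, on nuclei sorted from whole seedlings of day 7. The 4 groups of 2 libraries each were eTK after 1 h at 37 °C, eTK at 22 °C, the wild type Col-0 after 1 h at 37 °C, and Col-0 at 22 °C. The line eTK carries knockouts of hsfa1a, hsfa1b and hsfa1d, and the labels do not say whether it is otherwise identical to Col-0 in sequence. The comparisons ask whether the knob changed with heat and whether its change differed in eTK.

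The knob is a block of heterochromatin, the compact and mostly silent form of chromatin, that sits inside a gene-rich arm of Col-0. It derives from an inversion that carried sequence from beside the centromere outwards, and it is rich in transposable elements with genes scattered among them. HSFA1 proteins are the heat shock transcription factors that start the heat response of plants, and HSFA1E is not among the genes knocked out in eTK. No Arabidopsis genome or annotation was used here, and the build is not given in the sources used here, so regions are named by position only, with starts as the table gives them and without their gene, exon, intron, UTR or sequence.

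Library totals were 19.6 and 22.3 M counts in heated Col-0, against 33.2 to 38.7 M in the 6 libraries of heated eTK, eTK at 22 °C and Col-0 at 22 °C. The heated Col-0 pair also stood apart in the share of even counts, with 56.7% and 55.8% of regions against 50.3% to 51.4% in the other 6 libraries (63.6% and 60.7% against 46.4% to 52.5% among knob members), and in the share of all counts held by the most accessible 10% of regions, with 46.7% and 45.6% against 31.7% to 34.7%. The part of these features in the results that rest on heated Col-0 was not tested, except for depth. Depth was evened out by thinning every library to the smallest total, given beside the Col-0 calls of single regions. Within the window the replicates correlated at a Spearman's rho of 0.968 in heated eTK, 0.970 in eTK at 22 °C, 0.904 in heated Col-0 and 0.965 in Col-0 at 22 °C, across regions, which are not independent. Whether the replicates of a group were grown apart is not stated in the labels, so p-values measure only the spread between these libraries.

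The window was less accessible than its flanks but more so than chromatin at the centromeres. It held 91.9 regions per 100 kb, against 105 in the upstream flank, 98.8 in the downstream flank and 67.8 within 1 Mb of the 5 centromere centres. Region widths were alike, with a median of 175 bp in the window, 175 and 176 bp in the flanks and 179 bp over all regions. Only 34 members, 4.93%, were in the most accessible 10% of all regions, against 9.92% of the upstream flank, 9.31% of the downstream flank and 2.80% of the centromeric regions. The median member had 4.34 CPM (counts scaled by library total and TMM factor, mean over 8 libraries), against 5.34 and 5.03 in the flanks, 3.55 at the centromeres and 5.40 over all regions. The widest gap between members was 40.4 kb, from 1698713 to 1739095, while gaps in the upstream and downstream flanks reached 6186 and 7298 bp. Marks of heterochromatin were not analysed here, so the label of the window was checked by accessibility alone.

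With heat the knob took a lower share of the counts in Col-0 and a slightly higher one in eTK. In Col-0 the window took 0.290% and 0.286% of all counts in the heated replicates, against 0.492% and 0.488% at 22 °C. In eTK it took 0.659% and 0.620% in the heated replicates, against 0.605% and 0.609% at 22 °C. The groups did not overlap, with heated Col-0 lowest, then Col-0 at 22 °C, and both eTK groups highest. The upstream flank ranged only from 0.476% to 0.514% over all 8 libraries and the downstream flank from 0.401% to 0.480%. Whole seedlings mix cell types, so a change in their mix and a change within cells cannot be told apart. These shares rest on 56881 to 220280 counts in the window per library.

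Since a ratio within a library does not depend on how libraries are scaled, the window was compared with its own flanks. Counts in the window were 0.675 ± 0.0116 of those in both flanks in heated eTK, 0.640 ± 0.0114 in eTK at 22 °C, 0.315 ± 0.00508 in heated Col-0 and 0.538 ± 0.00107 in Col-0 at 22 °C (mean ± SD, n = 2 each). On the log2 scale heat lowered the ratio in Col-0 by 0.77 (SE 0.0162, adjusted p = 3.37e-10 by limma over 147 windows of 750 kb). In eTK the ratio rose with heat by 0.076 (SE 0.0162, adjusted p = 0.0108), a change that missed the threshold without eTK replicate 1 at 22 °C, without heated eTK replicate 1, and when medians of regions replaced sums. The difference between the heat responses, eTK minus Col-0, was 0.85 (SE 0.0229, adjusted p = 2.96e-09), where 44.2% of windows were called higher and 36.7% lower. Most windows passed this test in Col-0, with 46.3% of the 147 called lower than their flanks and 36.7% called higher. In Col-0 the knob window had the fourth lowest value, with 3 windows below it and 143 above. All 3 below it reached within 1 Mb of a centromere centre, as did the 3 highest of all. Neighbouring windows serve as flanks, so these ranks are not independent. The windows from 2250000 (-1.67) and 3750000 (-2.22) on chromosome 2 each have 1 flank in the window between them, at 2.58. The window downstream of the knob, at 0.63, has part of the knob as its upstream flank. With the median log2 CPM of regions in place of sums, the Col-0 change was -0.51 and the difference between the responses 0.52. With every library thinned to the smallest total, the Col-0 value was -0.77 and the difference between the responses 0.84. This alternative was chosen after seeing the data. Thinning a library at a single rate leaves its expected ratio unchanged, so these values do not test the effect of depth.

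**Figure D1:**
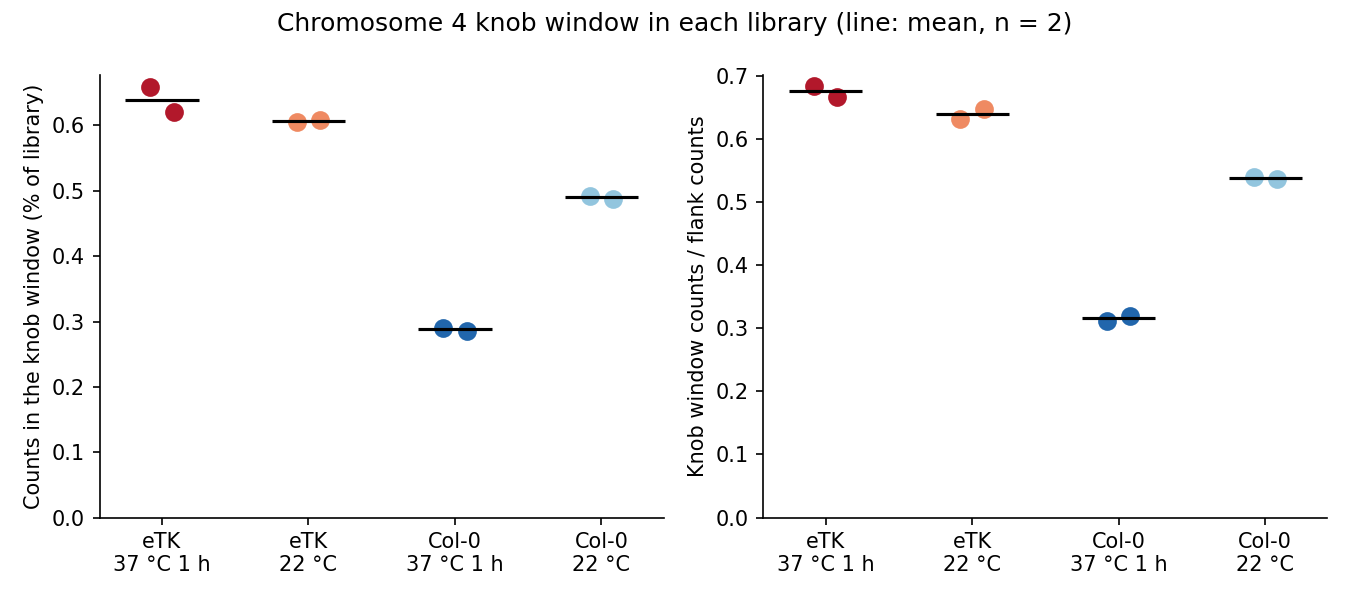
Counts in the knob window as a percentage of all counts (left panel) and divided by the counts in both 500 kb flanks (right panel), for each library (points) with the group mean (line, n = 2). Heated Col-0 sits lowest at 0.312 and 0.319 of the flanks, and heated eTK highest at 0.683 and 0.667.

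**Figure D2:**
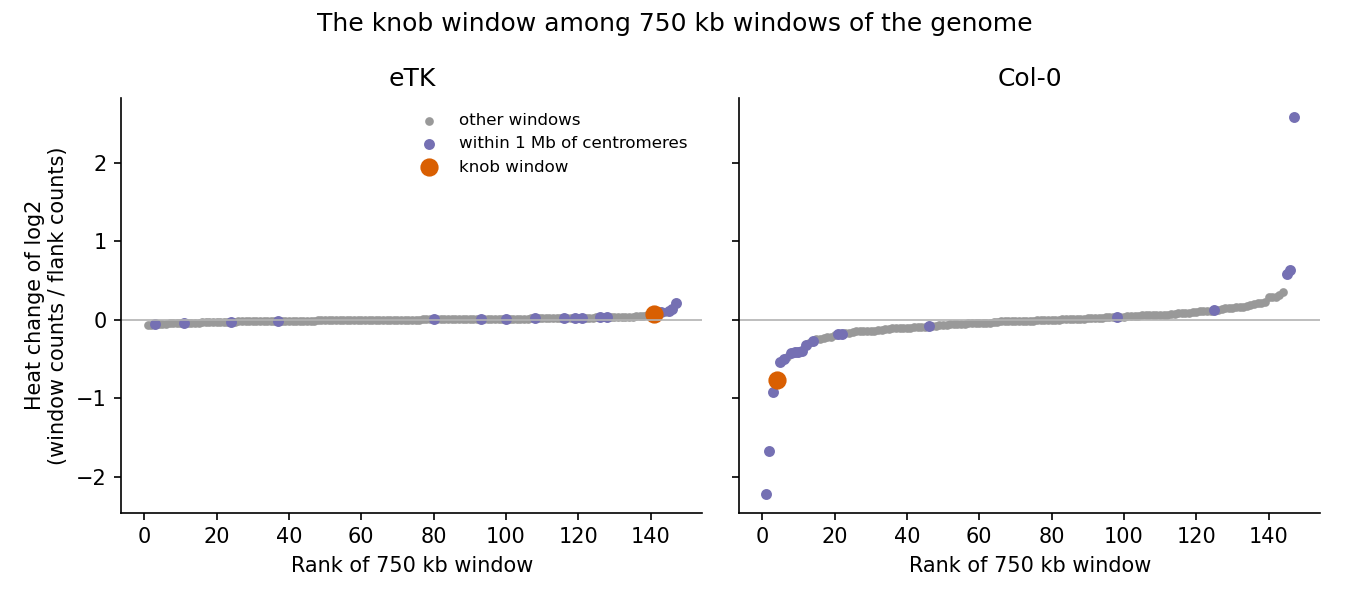
Heat change of the log2 ratio of window to flank counts in eTK (left) and Col-0 (right). The 147 windows of 750 kb are ranked from low to high. The knob window and windows that reach within 1 Mb of a centromere centre are coloured. The knob lies at -0.77 in Col-0 with 3 windows lower, and at 0.076 in eTK.

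In Col-0 every bin of the window was lower with heat relative to the flanks, unevenly along it. In bins of 50 kb, each divided by the counts of both flanks, the heat change in Col-0 was below 0 in all 15 bins of the window, from -1.54 to -0.10 on the log2 scale with a median of -0.91. In the upstream flank the 10 bins ran from -0.25 to 0.25, with 3 below 0. In the downstream flank 6 of 10 bins were below 0, and the lowest were the 2 bins farthest from the knob and nearest to the centromere, at -0.585 and -1.11. The lowest bins of the window were that from 1800000 (-1.54), the second bin (-1.41, 67 regions), that from 2150000 (-1.36) and that from 1700000 (-1.31), the last with only 8 regions. Between them lay bins nearer to 0, those from 1900000 (-0.10), from 2300000 (-0.23) and from 1850000 (-0.34). In eTK 14 of the 15 bins were above 0, in a narrow range from -0.0098 to 0.28, and the bins with the highest values were that from 1700000 (0.28) and the second bin of the window (0.22). A bin can be lower relative to the flanks while its own level rises. In Col-0 the bin from 1900000 had 437 and 408 CPM with heat against 295 and 291 CPM at 22 °C. That from 1800000 had 164 and 154 CPM against 303 and 296 CPM. In the upstream flank the bin from 1100000 had 872 and 815 CPM against 466 and 475 CPM. These are descriptions with no test per bin.

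**Figure D3:**
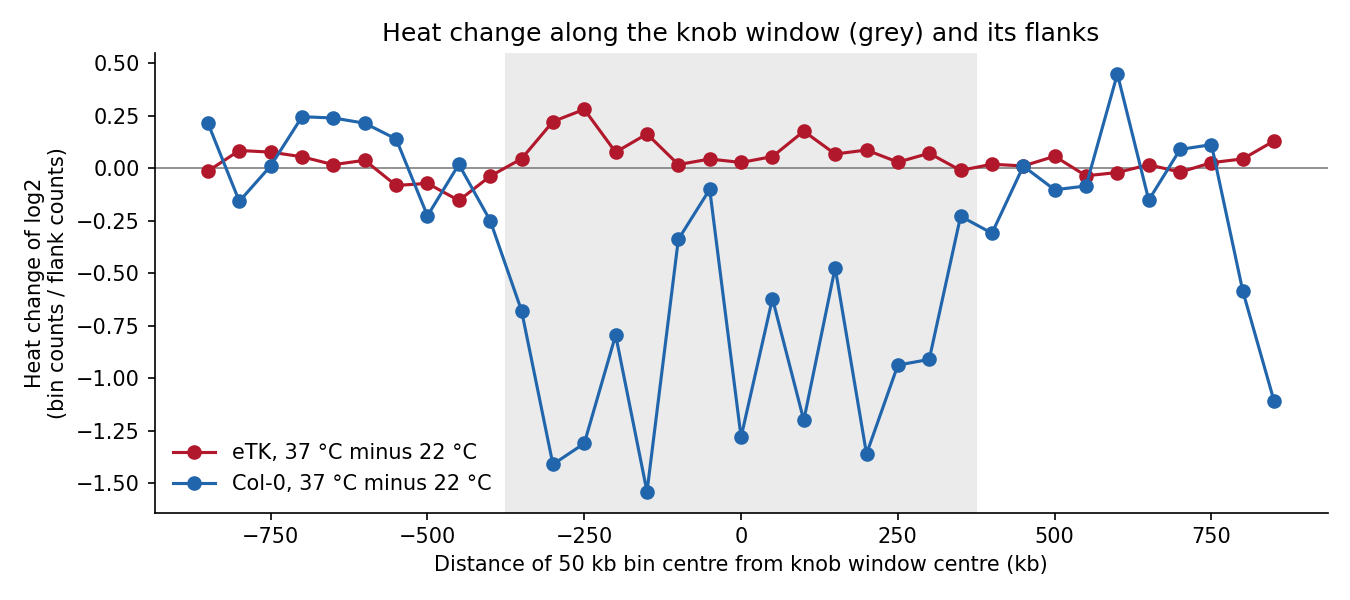
Heat change (37 °C minus 22 °C, mean of 2 libraries each) of log2 bin counts over flank counts, for bins of 50 kb by distance from the centre of the knob window, in eTK and Col-0. All 15 bins of the window (grey) lie below 0 in Col-0, down to -1.54, and eTK stays between -0.0098 and 0.28 there.

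At the edges of the window, the first member, from 1600789 to 1600906, had log2 changes with heat of 0.18 in eTK and -0.41 in Col-0, and the last region outside, from 1593880 to 1594042, 0.061 and -0.20. At the downstream edge the last member, from 2349452 to 2349573, had 0.031 in eTK and 0.61 in Col-0, and the first region outside, from 2349691 to 2350367, had -0.35 in eTK and -0.059 in Col-0.

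Region by region, 409 of the 689 members fell with heat in Col-0 and 58 rose by the quasi-likelihood test of edgeR, Benjamini-Hochberg adjusted over all regions, at a threshold of 0.05. That is 59.4% lower and 8.42% higher (67.8% in either direction), where 33.1% of all 110628 regions were called lower and 34.4% higher (67.5% in either direction). The median member changed by -0.58 on the log2 scale, against -0.016 in the upstream flank, -0.037 in the downstream flank, -1.14 within 1 Mb of the centromeres and -0.12 over all regions. Members over 2-fold lower numbered 90 (13.1%, against 8.09% of all regions), and those over 2-fold higher 16 (2.32%, against 22.6%). Members called lower formed 123 runs, and the longest held 31 consecutive members over 22.4 kb, from 1790486 to 1812848. With 59.4% of members called lower, runs arise in any order, and runs outside the window were not measured. The split depends on how the libraries are scaled, since scaling by total counts moved the median of all regions to -0.75. With that scaling the median member was at -1.21, and 610 members (88.5%) were called lower and 27 higher, against 62.5% of all regions lower. With loess offsets 385 members (55.9%) were called lower and 50 (7.26%) higher, against 34.7% and 31.1% of all regions. With libraries thinned to the smallest total, 384 members (55.7%) were called lower and 53 (7.69%) higher, against 31% and 33.8% of all regions.

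**Figure D4:**
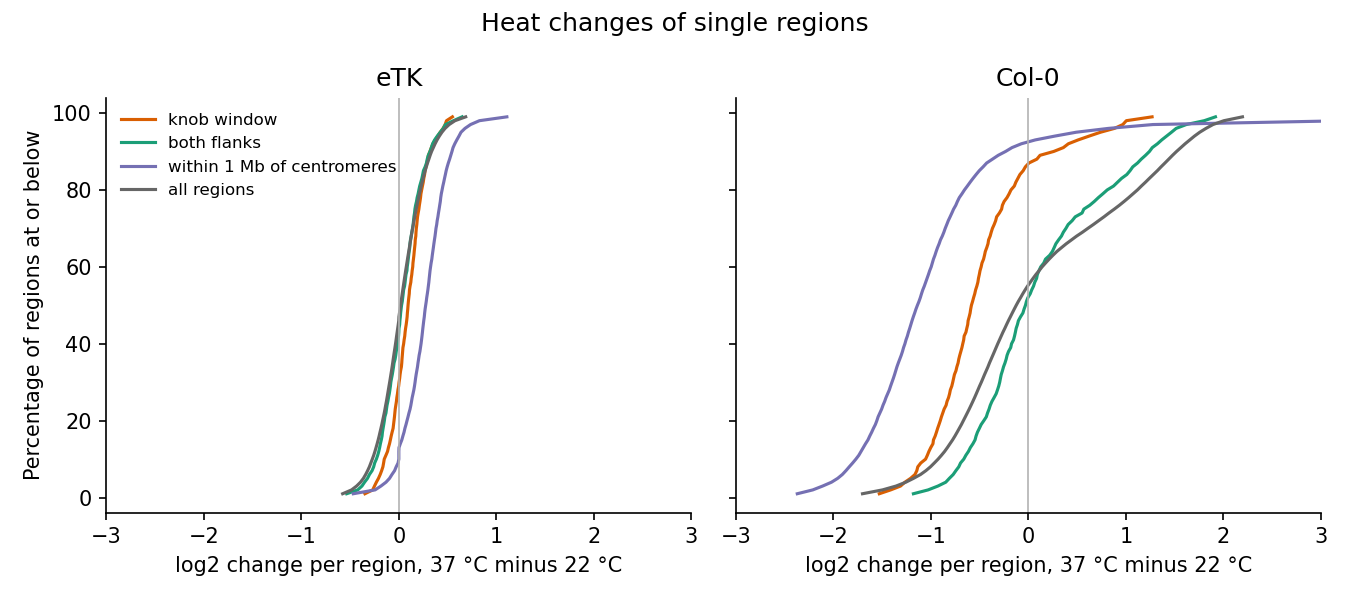
Cumulative distribution of log2 heat changes of single regions in eTK (left) and Col-0 (right), for the knob window, both flanks, regions within 1 Mb of centromere centres, and all regions. In Col-0 the knob curve, with a median of -0.58, lies between the centromeric regions at -1.14 and all regions at -0.12.

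Regions within 1 Mb of the centromere centres, also rich in heterochromatin, had changes of the same sign and larger in their summed share and their median. They took 5.36 ± 0.200% of all counts in heated eTK, 4.48 ± 0.103% in eTK at 22 °C, 2.23 ± 0.00614% in heated Col-0 and 4.08 ± 0.0698% in Col-0 at 22 °C (mean ± SD, n = 2 each). In Col-0 82.5% of them were called lower with heat and 5.65% higher, against 33.1% and 34.4% of all regions. In eTK 16.5% were called higher and 0.31% lower, against 3.98% and 3.95% of all regions. The set was mixed, since its 98th percentile in Col-0 was at 3.26, against 2.01 over all regions.

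The median change of knob members in Col-0 was below 0 at every level of accessibility. From the lowest class to the highest, 43.6%, 58.2%, 79.9% and 66.1% of members were called lower. Over all regions of these classes the shares called lower were 32.7%, 34.2%, 40% and 25.6%. Regions within 1 Mb of the centromeres shared the pattern, with 81.4%, 88.8%, 86.8% and 66.8% called lower. Their medians in Col-0 were -1.14, -1.11, -1.22 and -1. Regions of the whole table were split into 4 classes of like size by their mean CPM over all 8 libraries, with limits at 3.37, 5.40 and 10.6 CPM. In the lowest class the 227 members had a median change in Col-0 of -0.58, against -0.15 for flank regions of that class and -0.34 for all regions of it. In the second class the 201 members had -0.55, against -0.10 in the flanks and -0.22 for all regions, and in the third the 149 members had -0.62, against -0.10 and -0.15. In the highest class the difference in medians was widest, with -0.52 for the 112 members, against 0.86 for the flanks and 0.91 for all regions. In the highest class 29.5% of members were called higher, while 25.6% of all regions of that class were called lower and 66.1% higher. Of the centromeric regions of that class 29% were called higher. Across regions, the Spearman correlation of mean CPM with the Col-0 change was 0.025 in the window (689 regions), 0.32 in the flanks (1018) and 0.33 over all regions, values that share the same 8 libraries and carry no test. These levels include the heated Col-0 libraries, so the class of a region partly follows its change. With classes by the mean CPM of the 4 eTK libraries, which the Col-0 change does not use (added after seeing the data), the medians of members were -0.53, -0.55, -0.60 and -0.62. Those of the flanks were then -0.015, -0.045, -0.13 and 0.36, and those of all regions -0.091, -0.21, -0.21 and 0.26, so the high values of the strongest regions were smaller by this measure. The Spearman correlations were -0.067 in the window, 0.14 in the flanks and 0.064 over all regions. By width, the widest of 4 classes of regions had a median of -0.69 in the window (166 members), against 0.42 in the flanks and 0.29 for all regions.

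**Figure D5:**
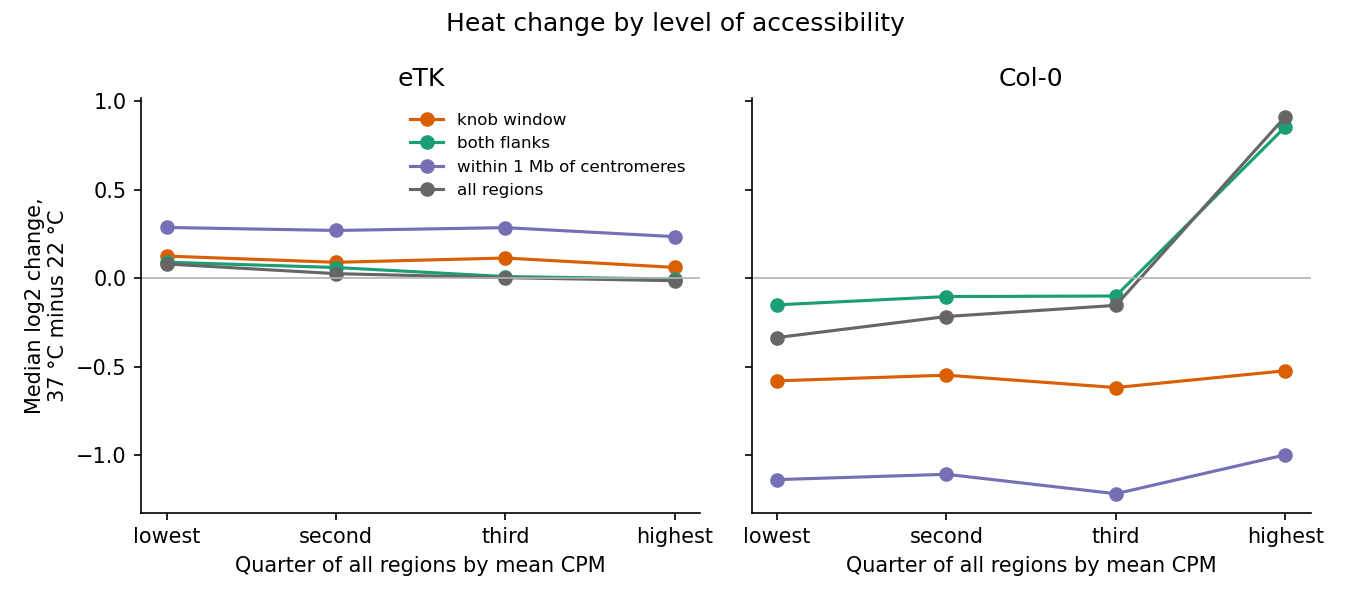
Median log2 heat change by class of mean CPM in eTK (left) and Col-0 (right), for the knob window, both flanks, centromeric regions and all regions. In Col-0 the knob medians stay between -0.62 and -0.52 while the flanks reach 0.86 in the highest class, where levels include the heated Col-0 libraries (0.36 with levels from eTK alone).

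The members with the lowest changes in Col-0 were small and weak. The region from 1695410 to 1695477 had 2.57 and 1.84 CPM in heated eTK and 1.48 and 2.09 CPM in eTK at 22 °C, against 0.586 and 0.251 CPM in heated Col-0 and 1.19 and 2.16 CPM in Col-0 at 22 °C. Both heated Col-0 libraries were below the other 6. Its change in Col-0 was -2.02 (SE 0.462, adjusted p = 7.29e-05, edgeR), and in eTK it was 0.30 (adjusted p = 0.555). Close to it, the region from 1689807 to 1689935 fell by 1.99 in Col-0, and the one from 1653700 to 1653781 fell by 1.97, to 0.440 and 0.377 CPM in heated Col-0 against 1.54 and 1.65 CPM at 22 °C. The others named were the regions from 1795792 to 1795933, which fell by 1.83, and from 1952313 to 1952383, which fell by 1.80. None of these 5 was called in eTK, where only 4.5% of members and 7.93% of all regions were called.

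Of the 3 widest members 1 also fell, with many more counts, while the other 2 rose. The region from 2191249 to 2192748, the third widest in the window at 1499 bp, had 53.7 and 52.0 CPM in heated eTK and 51.0 and 50.0 CPM in eTK at 22 °C. In Col-0 it had 14.8 and 12.0 CPM with heat against 25.6 and 23.2 CPM at 22 °C. The 4 groups kept the order of the whole window. It fell in Col-0 by 0.87 (SE 0.0976, adjusted p = 8.97e-14, edgeR), while its change in eTK was 0.065 (adjusted p = 0.635).

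The 58 members that rose with heat in Col-0 had a median width of 298 bp, against 213 bp in the 409 that fell. Their median level in the 4 eTK libraries, which this comparison does not use, was 9.37 CPM, against 6.26 CPM in those that fell, with no test. The member with the highest mean CPM over all 8 libraries, from 1931400 to 1932707, had 58.2 and 53.1 CPM in heated eTK and 62.8 and 57.9 CPM in eTK at 22 °C. In Col-0 it had 187.5 and 165.5 CPM with heat against 62.6 and 61.0 CPM at 22 °C. Its rank rests on heated Col-0. The region from 1874525 to 1876036 had higher means in Col-0 at 22 °C (66.0 against 61.8 CPM), eTK at 22 °C (61.9 against 60.4 CPM) and heated eTK (56.9 against 55.7 CPM). The member from 1931400 rose by 1.51 in Col-0 (SE 0.0657, adjusted p = 5.88e-40, edgeR), and its change in eTK was -0.12 (adjusted p = 0.290). Its neighbour from 1932939 to 1933899 rose by 1.58 in Col-0, and in eTK its change was 0.031 (adjusted p = 0.872). Both lie in the bin from 1900000, the one nearest to 0.

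The highest change of any member in Col-0 was that of the region from 2113271 to 2113604. It had 10.2 and 10.8 CPM in heated eTK and 9.22 and 8.60 CPM in eTK at 22 °C, beside 34.7 and 30.9 CPM in heated Col-0 and 8.79 and 9.44 CPM in Col-0 at 22 °C. It rose by 1.84 in Col-0 (SE 0.103, adjusted p = 8.39e-32, edgeR), and in eTK its change was 0.24 (adjusted p = 0.146). Further on, the region from 2119160 to 2119655 rose by 1.59 in Col-0, to 86.1 and 84.0 CPM with heat against 29.2 and 27.2 CPM at 22 °C. Near the downstream edge, the region from 2330162 to 2330422 rose by 1.66 (73.8 and 65.6 CPM with heat, against 21.4 and 22.9 CPM at 22 °C). The longest run of risen members, 7 in 4.11 kb from 2320875 to 2324988, lay close to it.

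The 2 widest members were also among the strongest and rose in Col-0. The region from 1772478 to 1774492, of 2014 bp, rose by 0.63 and the one from 1874525 to 1876036, of 1511 bp, by 0.98. The region from 1874525 had 57.4 and 56.3 CPM in heated eTK and 63.3 and 60.5 CPM in eTK at 22 °C, with 135.4 and 126.2 CPM in heated Col-0 and 67.2 and 64.9 CPM in Col-0 at 22 °C. The region from 1889473 to 1890581, the third in mean CPM, rose by 0.62 in Col-0 and fell in eTK by 0.21 (adjusted p = 0.0348, edgeR).

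In eTK, 23 members rose and 8 fell with heat, 3.34% and 1.16%, where 3.98% and 3.95% of all regions were called (7.93% in either direction). No member was called over 2-fold changed in eTK, where only 0.104% of all regions were over 2-fold higher and 0.0316% lower. An unadjusted p under 0.05 (edgeR) was found in 107 of the 689 members and in 24238 of the 110628 regions. The median member was at 0.094 and the median of all regions at 0.018. DESeq2 called 4 members higher and 0 lower (0.581% and 0%, against 1.9% and 1.22% of all regions), and gave no adjusted p to 383 members or to 49331 of all regions. Leaving out single libraries gave 1 to 47 calls, and the balance of directions turned in some. Without heated eTK replicate 1 there were 3 higher and 6 lower, and without eTK replicate 1 at 22 °C 0 higher and 1 lower. Without heated eTK replicate 2 there were 7 higher and 1 lower, and without eTK replicate 2 at 22 °C 5 higher and 3 lower. The calls numbered 19 and 18 without Col-0 replicate 1 or 2 at 22 °C, and 47 without either heated Col-0 replicate, since all groups share 1 estimate of spread. The highest changes were 0.73 in the region from 2100032 to 2100138, 0.71 in the region from 1793871 to 1794009 and 0.63 in the region from 1934063 to 1934152. The region from 1793871 to 1794009 had 3.97 and 4.47 CPM in heated eTK and 2.28 and 2.87 CPM in eTK at 22 °C. In Col-0 it fell by 1.28, to 1.03 and 1.00 CPM with heat against 2.31 and 2.62 CPM at 22 °C. The lowest were -0.64 in the region from 2126880 to 2127055, -0.49 in the region from 2292528 to 2292726 and -0.42 in the region from 2133166 to 2133467. The calls of all 6 were lost when at least 2 of the eTK libraries were left out in turn. Of the 409 members that fell in Col-0, 11 rose in eTK and 4 fell, so 1.60% of members were lower in Col-0 and higher in eTK, against 1.35% of all regions.

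Tested directly, the heat response of eTK exceeded that of Col-0 in 390 members and was below it in 48 (56.6% and 6.97%, where 25.7% and 33% of all regions were called, 58.7% in either direction). With total count scaling 605 members (87.8%) were higher and 22 (3.19%) lower, against 55.9% and 21.6% of all regions, whose median was then 0.71 and that of members 1.315. The median interaction with TMM, eTK minus Col-0, was 0.69 in the window, -0.0049 and 0.083 in the upstream and downstream flanks and 0.089 over all regions. Within 1 Mb of the centromeres it was larger, at 1.42, with 79.2% of regions called higher and 5.07% lower. The highest were those of the regions from 1695410 to 1695477 (2.32, SE 0.543), from 1653700 to 1653781 (2.30, SE 0.495) and from 1689807 to 1689935 (2.25, SE 0.553). The lowest were those of the regions from 2330162 to 2330422 (-1.66, SE 0.113), from 1931400 to 1932707 (-1.63, SE 0.0926) and from 2113271 to 2113604 (-1.60, SE 0.147). All 6 passed edgeR's test, and they are the same regions that fell or rose in Col-0, whose libraries both comparisons use.

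Without heat the knob was already more accessible in eTK than in Col-0. At 22 °C 158 members were higher in eTK and 4 lower, 22.9% and 0.581%, while over all regions 6.6% were higher and 13.4% lower (20% in either direction). The median member was 0.25 higher in eTK on the log2 scale, against 0.049 and 0.12 in the flanks and 0.0068 over all regions. Regions within 1 Mb of the centromeres had a similar median of 0.29, with 27.9% called higher and 15.3% lower. The ratio of window to flanks was 0.25 higher in eTK (SE 0.0162, adjusted p = 2.29e-06, limma), and no other of the 147 windows had a higher difference, where 35.4% were called higher and 29.3% lower. By summed level 7 of the 162 windows exceeded the knob, and all 7 reached within 1 Mb of a centromere centre. DESeq2 called 55 members higher and 4 lower (7.98% and 0.581%, against 1.62% and 12.3% of all regions). With total count scaling 33.7% of members were higher and 0.581% lower, against 11% and 9.74% of all regions. The count was 70 without Col-0 replicate 1 at 22 °C, 84 without Col-0 replicate 2 at 22 °C, 94 without eTK replicate 1 at 22 °C and 83 without eTK replicate 2 at 22 °C. The 15 bins were all above 0, from 0.12 to 0.61, with the highest from 2150000 and from 2050000 (0.51).

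The members that differed most at 22 °C also differed with heat. The region from 1739095 to 1739291, the first after the widest gap, had 4.01 and 4.90 CPM in eTK at 22 °C, against 0.998 and 1.00 CPM in Col-0 at 22 °C. With heat it had 5.08 and 4.44 CPM in eTK against 1.47 and 0.879 CPM in Col-0. The eTK libraries were all above the Col-0 ones, by 2.15 at 22 °C (SE 0.223, adjusted p = 2.52e-14, edgeR), and the interaction was -0.11 (adjusted p = 0.825). The region from 1839283 to 1839381 was higher by 1.95 at 22 °C, and that from 1996333 to 1996934 by 1.85, with 19.6 and 18.2 CPM in eTK against 5.28 and 5.20 CPM in Col-0. The 4 lower members included 3 neighbours from 1959663 to 1960240. Of these the region from 1959663 to 1959762 was lower by 1.43, with 1.73 and 1.17 CPM in eTK against 4.23 and 3.60 CPM in Col-0, the region from 1960145 to 1960240 was lower by 1.24 and the one from 1959884 to 1959975 by 0.75 (adjusted p = 0.0116, edgeR). The call of the region from 1959884 was lost without Col-0 replicate 1, Col-0 replicate 2 or eTK replicate 2 at 22 °C. Whether sequence or copy number differs between the lines at such regions was not tested.

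After heat the genotypes stood farthest apart. In heated plants 566 members were higher in eTK than in Col-0 and 52 lower, 82.1% and 7.55%, against 37.3% and 37.9% of all regions (75.2% in either direction). With total count scaling 92.3% of members were higher and 3.92% lower, against 61.2% and 27.9% of all regions, whose median was then 0.80. The median member was 0.98 higher in eTK and the median of all regions 0.11 higher, and 328 members (47.6%) were over 2-fold higher, against 14.2% of all regions. Regions within 1 Mb of the centromeres had a larger median of 1.64, with 82.3% called higher and 13.5% lower. As many as 98 consecutive members were higher, over 89.2 kb from 1782690 to 1871876, where 82.1% of members were called higher. Runs outside the window were not measured. The ratio of window to flanks was 1.10 higher in eTK (SE 0.0162, adjusted p = 2.29e-11, limma, where 49% of windows were called higher and 42.2% lower). The 3 windows with a higher ratio difference all reached within 1 Mb of a centromere centre. The highest single differences were 2.81 in the region from 1653700 to 1653781, 2.76 in the region from 1839608 to 1839741 and 2.52 in the region from 1689807 to 1689935. The lowest were -1.84 in the region from 2119160 to 2119655, -1.73 in the region from 2330162 to 2330422 and -1.66 in the region from 1931400 to 1932707. Of the 158 members higher in eTK at 22 °C, 149 were also higher at 37 °C, which is 94.3% of the first list and 26.3% of the second, against 89.4% and 15.8% over all regions. The 2 genotype comparisons share no library.

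The summed level of the window, unlike its ratio to the flanks, depends on the scaling. With TMM factors it fell with heat in Col-0 by 0.14 (SE 0.0536, adjusted p = 0.00797, edgeR over 162 windows), where the median window was 0.62 higher and 13.6% of windows were called lower, 85.2% higher. Of the 21 windows below it, 17 reached within 1 Mb of a centromere centre. The Col-0 call was lost without Col-0 replicate 1 at 22 °C, without Col-0 replicate 2 at 22 °C and without heated Col-0 replicate 2 (adjusted p = 0.0752, 0.0581 and 0.0891). In eTK the level differed by 0.072 with heat (adjusted p = 0.575, with 8.64% of windows called higher and 0 lower), and the difference between the responses was 0.22 (adjusted p = 0.00478, with 13.6% called higher and 84% lower). The level was 0.24 higher in eTK than in Col-0 at 22 °C (adjusted p = 2.38e-05, where 13.6% of windows were called higher and 56.8% lower) and 0.46 higher at 37 °C (adjusted p = 1.59e-16, with 14.2% higher and 84.6% lower). Over single values per library, an exact permutation test of the log2 ratio of window to flanks between eTK and Col-0, within each temperature, gave a difference of 0.67 (two-sided p = 0.0556, the smallest that its 36 arrangements allow). The same exact permutation test for heat over both genotypes gave -0.35 (p = 0.333), with opposite signs in the genotypes.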

How the data were processed

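The deposited table held whole-number read counts per region for 8 Arabidopsis libraries, which the authors made upstream. The submitters' processing notes name MACS2 2.2.7.1 and Bowtie2 2.4.4, then Subread 2.0.6 with featureCounts, and also deepTools, bedtools, SAMtools, FastQC 0.11.9 and fastp 0.24.0. For the order and settings of these tools, the genome build, the handling of duplicates and of the Tn5 offset, and any pooling of libraries before regions were called, details are not given in the sources used here.
Tables of Marchantia libraries were not used.

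Counts were tested per region over all 110628 regions with edgeR 4.0.16 (R 4.3.3) by its quasi-likelihood F test with TMM factors, 4 groups in 1 fit, and Benjamini-Hochberg adjustment with a threshold of 0.05. The filter on low counts (filterByExpr) removed 0 regions, and 686 of the 689 members had a mean of at least 50 counts. No member was at 0 in any library. Heat changes are 37 °C minus 22 °C, and genotype differences are eTK minus Col-0. Standard errors of regions were the log2 change divided by the root of F. Windows of 750 kb with at least 20 regions were tested as sums with edgeR, and as log2 ratios to their own 500 kb flanks with limma 3.58.1. The regions within 1 Mb of centromere centres used approximate centres set by hand and not taken from the files. DESeq2 1.42.0 was an alternative, with other scalings, filters, flanks and windows, a block for replicate number, and each library left out in turn. Scripts were tested on simulated data. The depth of each library bounds the precision, and the members with the fewest counts have the largest errors.

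The window, the lists and the rule for named regions were chosen with earlier results of these data known. The text names members that averaged 50 or more counts and passed the threshold: the 5 highest and 5 lowest changes with heat in Col-0, and the 3 highest and 3 lowest in each other comparison. The 3 widest members, the 3 with the highest mean CPM and the regions at the edges were also named.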

Additional observations from a re-analysis of the deposited data

Results flagged for a closer look

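The heat response of the knob window differed between the genotypes by a direct test of the difference. Relative to its flanks the response of eTK exceeded that of Col-0 by 0.846 on the log2 scale (limma, adjusted p = 2.96e-09). For the summed level the difference was 0.215 (edgeR, adjusted p = 0.00478).

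Among single regions, 438 members passed edgeR's interaction test, 390 with a higher response in eTK and 48 with a lower one. Of all regions 25.7% were called higher and 33% lower, against 56.6% and 6.97% of members. Within 1 Mb of the centromeres 79.2% were called higher and 5.07% lower. The 3 highest and 3 lowest are given here. The response of eTK exceeded that of Col-0 by 2.32 in the region from 1695410 to 1695477, by 2.30 in the region from 1653700 to 1653781 and by 2.25 in the region from 1689807 to 1689935. It was below that of Col-0 in the region from 2330162 to 2330422 (-1.66), the region from 1931400 to 1932707 (-1.63) and the region from 2113271 to 2113604 (-1.60). The first 3 regions have means of 54.0 to 67.2 counts per library, so few counts lie behind them.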

How the results depend on the processing

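No window value or named region changed sign under the alternatives run, but the balance of calls with heat in eTK (23 higher, 8 lower) turned without heated eTK replicate 1 (3 higher, 6 lower) and without eTK replicate 1 at 22 °C (0 higher, 1 lower). Of the counts of called members under alternatives, 60 stayed within 1.5 times and 15 did not. Of the window tests 138 kept their side of the threshold, 6 lost it and 1 gained it, and of the named regions 475 kept it and 31 lost it. Members called with heat in eTK numbered 4 with DESeq2 and 13 with libraries thinned to the smallest total, an alternative chosen after seeing the data, and 1 to 47 with single libraries left out. For eTK minus Col-0 at 22 °C they numbered 59 with DESeq2 and 70 to 202 with single libraries left out. The ratio of window to flanks with heat in eTK was 0.011 with the median log2 CPM (adjusted p = 0.93, limma), and 0.058 to 0.094 with single libraries left out. The window level with heat was 0.021 to 0.12 in eTK and -0.17 to -0.11 in Col-0 with single libraries left out, and the eTK level passed the threshold without heated eTK replicate 2 (0.12, adjusted p = 0.00116, edgeR). Depth limits the weakest members most, with a median of 40 and 48 counts per member in heated Col-0 against 153 to 211 in the other 6 libraries. Loess offsets were run for single regions only. DESeq2 gave no adjusted p for 4 values of named regions.

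Same-numbered replicates showed no shared pattern over regions, as the correlation of their deviations was over 0.1 in 0 of 6 pairs of groups (-0.018 to 0.064). With 2 libraries per group this cannot show whether same-numbered libraries were grown or prepared together. With the replicate block, called members numbered 466 for heat in Col-0, 34 for heat in eTK, 440 for the difference of responses, 163 for eTK minus Col-0 at 22 °C and 618 at 37 °C.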
